A study of Homo sapiens with 18 samples.

Results

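The S100 calcium-binding proteins described here are 10 genes, S100A2, S100A4, S100A6, S100A8, S100A9, S100A10, S100A11, S100A14, S100A16 and S100P, out of 28087 genes in the count table. They were chosen by name as members of 1 protein family, with no measured value in the rule. Earlier results of these data were known when they were chosen. Of the 10, 9 lie on chromosome 1 among other S100 genes and S100P lies on chromosome 4. RNA was sequenced from LNCaP, an androgen-responsive human prostate cancer cell line, labelled wild type in all groups. There were 6 groups of 3 libraries, each taken after 48 h. M1-IKK cells received medium conditioned by M1-polarised THP-1 macrophages together with 0.7 μmol/l IKK16, an inhibitor of the IκB kinases that activate NF-kB. M1-DMSO cells received the same kind of medium with DMSO, the solvent, in equal amount. M1, M2 and M0 cells received medium from M1-polarised, M2-polarised or unpolarised THP-1 macrophages, and CTRL cells received RPMI with heat-inactivated serum and no macrophage product. Conditioned media were diluted 1:4 in that RPMI. THP-1 is a monocytic leukaemia line, so the macrophages that made the media were cultured line cells. No group received IKK16 or DMSO without M1 medium, and none received IKK16 without DMSO. Each p-value rests on the spread between libraries within groups, shared over all 6 groups. The labels do not say whether replicates were separate cultures, so that spread may be technical.

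S100 proteins are small proteins that bind calcium through a pair of EF-hand loops and mostly act as dimers. Inside cells they change shape with calcium and bind partners such as annexins, cytoskeletal proteins and p53. Several are also released, and outside cells S100A8, S100A9 and S100P can engage the receptor RAGE (gene AGER) or TLR4. S100A8 and S100A9 together form calprotectin, a complex that binds zinc and manganese and is abundant in neutrophils and monocytes.

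Libraries held between 24201864 and 33813552.5 gene counts. Levels are given in CPM, a gene's counts set against the library total after TMM scaling. The 11 LNCaP luminal prostate markers summed to 3335 to 3419 CPM in M1 libraries and 9038 to 9312 CPM in CTRL libraries, and none was at 0 in any group. Of the 11, 4 were called higher and 6 lower in M1. Over all genes tested 32.9% were higher and 31.9% lower, so nothing is read from these counts. Those higher were KRT8 (0.49 on the log2 scale), EPCAM (0.27), FOLH1 (0.26) and STEAP2 (0.24). KLK3, which encodes prostate-specific antigen, was the largest part of the sum in CTRL. It averaged 154 ± 6.78 CPM in M1 and 3714 ± 228 CPM in CTRL (SD, n = 3 each). Bulk libraries give neither the number of cells nor the RNA per cell, and the cause of these changes was not tested. Of the 18 macrophage and monocyte markers, 4 or 5 were at 0 counts in each group, with TYROBP, C1QA and C1QB at 0 in all 6 groups. The common leukocyte marker PTPRC had 2 counts over the 3 M1-IKK libraries, 2 over M2, 1.5 over CTRL and 0 in M1-DMSO, M1 and M0.

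M1 medium was followed by large rises of S100A9, S100A8, S100P and S100A14, a rise of S100A2 at low counts and a smaller rise of S100A11. M0 and M2 media moved no tested member past the threshold. Against CTRL, 6.67% of all genes tested were higher and 5.09% lower in M0, and 5.28% and 3.49% in M2. For 9 tested members a count of 0 is near those shares, so nothing is read from it. With IKK16, S100A9 and S100A8 were 3.54-fold and 3.27-fold lower in M1-IKK than in M1-DMSO. S100P was 1.34-fold higher, a call that was lost with DESeq2 (adjusted p = 0.0929) and without either of 2 libraries. Of the 10 members, 9 passed the filter on low counts and were tested. S100A2, S100A8 and S100A9 passed it only through the M1-IKK, M1-DMSO and M1 libraries, since in M2, M0 and CTRL no library reached the limit of 0.346 CPM. A gene that enters in that way had to differ, so counts of members are an inventory and their size supports nothing. S100A6, also called calcyclin, had 0 counts in all 18 libraries, which allows up to 0.0898 to 0.126 CPM (3 counts per library, counting error only). The gene overlaps LOC124904423, and how reads with several matches and strand were handled is not given in the sources used here, so the part of read counting in this 0 was not tested and the limit is not read as one on expression.

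**Figure D1:**
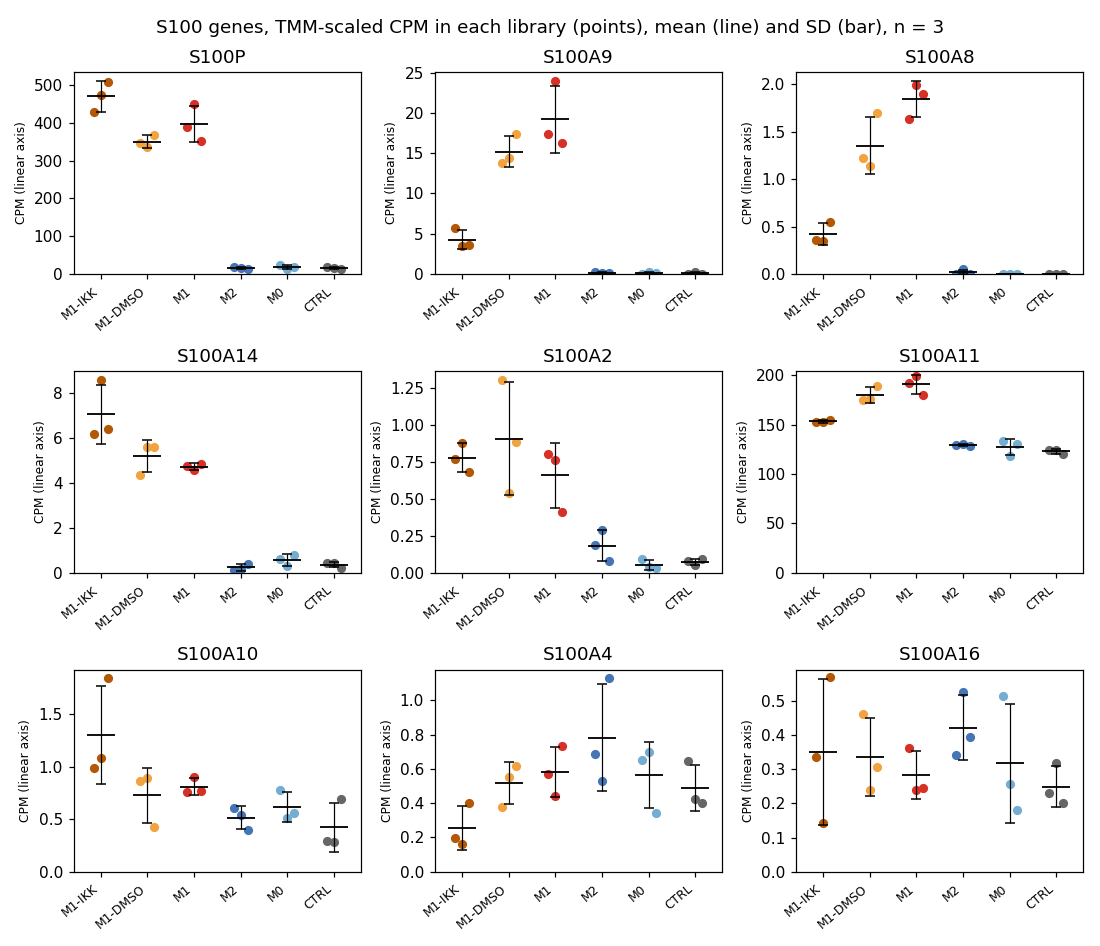
Level of each of the 9 tested members (TMM-scaled CPM, linear axes that differ between panels) in each library of M1-IKK, M1-DMSO, M1, M2, M0 and CTRL from left to right; points are libraries, lines group means and bars SD. S100P averaged 397 CPM in M1 and 16.01 CPM in CTRL, while S100A9 averaged 4.27 CPM in M1-IKK and 15.2 CPM in M1-DMSO.

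Counts were tested with edgeR's quasi-likelihood test, and a gene was called at a Benjamini-Hochberg adjusted p under 0.05 over all 17034 genes tested. Between M1 and CTRL, 7 members were called higher and 0 lower, where 32.9% of all genes tested were higher and 31.9% lower. At an unadjusted p under 0.05, and with DESeq2, 0 members were lower as well. The members higher in M1 were S100P, S100A9, S100A8, S100A14, S100A2, S100A11 and S100A10, and those not called were S100A4 and S100A16. Of these 7, 5 were at least 2-fold higher, and 10.3% of all genes tested were called higher at that size.

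S100A8 and S100A9, the calprotectin subunits, lie close together on chromosome 1 (GRCh38.p14, chr1:153390032-153422583 for the extent of the S100A8 transcripts and chr1:153357854-153361023 for S100A9). S100A9 had 17.4, 23.9 and 16.2 CPM in the M1 libraries, against 0, 0.212 and 0.0617 CPM in the CTRL libraries. The M1 libraries all lay far above the CTRL libraries, which held 8 counts in total. The log2 fold change was 7.70 ± 0.33 (SE; edgeR adjusted p = 1.51e-15). Its size rests on those few counts, 6 of them in CTRL replicate 2, and was 9.05 without that library. S100A9 passed the filter only through libraries with M1 medium, so it had to differ and this p-value adds no support. In the M2 libraries S100A9 had 0.218, 0.144 and 0.0991 CPM, and in the M0 libraries 0.0573, 0.202 and 0.0983 CPM. Both ranges overlapped that of CTRL.

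S100A8 had 1.63, 1.99 and 1.90 CPM in the M1 libraries (51.5, 58.5 and 58 counts), against 0 counts in every CTRL and M0 library. It was at least 18.6-fold higher in M1 than in CTRL, taking the limit of 3 counts per library as the CTRL level (edgeR adjusted p = 1.53e-09). The M2 libraries held 0, 1.5 and 0 counts. S100A8 too passed the filter only through libraries with M1 medium, so it had to differ and its p-value adds no support. S100A8 was scarcer than S100A9 wherever both were found. Per kilobase of transcript, the level of S100A9 was 8.76 times that of S100A8 in M1-IKK, 9.65 times in M1-DMSO and 8.95 times in M1. The transcript that stands for S100A8 reaches into S100A7A, and the other S100A8 transcripts held up to 7 fewer counts in a library, 51 against 58 in M1 replicate 3. When the longest S100A8 transcript was used instead, the gene was still called in M1 against CTRL and in M1-IKK against M1-DMSO.

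The 18 macrophage markers without CSF1R, which was at 186 to 263 CPM in every library, summed to 37.1 to 40.2 CPM in M1-IKK, 53.2 to 56.8 in M1-DMSO, 57.9 to 66.0 in M1, 7.30 to 8.52 in M2, 8.14 to 10.4 in M0 and 8.35 to 9.12 in CTRL. This sum thus moved with S100A8 and S100A9 in M1 medium and with IKK16. Of the 8 markers tested, 4 were higher and 3 lower in M1 than in CTRL. Over all genes tested 32.9% were higher and 31.9% lower, so nothing is read from these counts. Among those higher, ITGAM, LYZ and LAPTM5 reached the filter limit only in libraries with M1 medium, so they had to differ. The 3 lower were SPI1 (-1.95 on the log2 scale), ITGB2 (-0.77) and CSF1R (-0.19). The largest parts of the sum in M1 were CD68, a lysosomal protein, and the integrin subunit ITGAM. CD68 averaged 36.9 ± 3.03 CPM in M1 and 4.93 ± 0.294 CPM in CTRL (SD, n = 3 each). ITGAM averaged 19.95 ± 1.43 CPM in M1 and 0.154 ± 0.151 CPM in CTRL. PTPRC, TYROBP, MRC1, C1QA and C1QB were at 0 counts in the M1 libraries, and CD14, the monocyte co-receptor of TLR4, had 2 counts over the 3 M1 libraries and 2 over the 3 CTRL libraries. The part of macrophage RNA in the calprotectin levels was not tested.

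The RefSeq promoter windows of the strongest responders (250 bases before to 50 after each start, GRCh38.p14) are printed because NF-kB is the pathway that IKK16 acts on. On both strands, the windows of S100A8, S100A9, S100P and S100A14 held no match to the NF-kB motif (GGG and TTTCC with any 2 bases between), the STAT letters TTCNNNGAA, the C/EBP letters TTGCNNAA or the AP-1 letters TGANTCA. Of all 35116 promoter windows, 1.91%, 7.66%, 10.5% and 7.71% held these motifs in that order. No match says only that these letters are not in these windows. The TATA box letters TATAAA, a search added after the values were seen, are in capitals. They begin 29 bases before the start in S100A8 (1 of its 3 windows, chr1:153391024-153391323, minus strand) and in S100A9 (chr1:153357604-153357903, plus strand), and 28 bases before it in S100P (chr4:6693628-6693927, plus strand). TATAAA was present in 11.5% of all windows and overlapped no other match. It is not particular to responders: it also begins 31 bases before the start in S100A4, which was not called in M1, and it was found in windows of S100A7, S100A7A, S100A12, S100A13, S100G and S100Z.
S100A8: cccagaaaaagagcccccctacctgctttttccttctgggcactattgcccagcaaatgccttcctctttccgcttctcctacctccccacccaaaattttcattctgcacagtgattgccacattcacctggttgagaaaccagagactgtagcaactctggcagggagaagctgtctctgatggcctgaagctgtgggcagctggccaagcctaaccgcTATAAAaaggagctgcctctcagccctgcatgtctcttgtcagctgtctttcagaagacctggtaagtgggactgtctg
S100A9: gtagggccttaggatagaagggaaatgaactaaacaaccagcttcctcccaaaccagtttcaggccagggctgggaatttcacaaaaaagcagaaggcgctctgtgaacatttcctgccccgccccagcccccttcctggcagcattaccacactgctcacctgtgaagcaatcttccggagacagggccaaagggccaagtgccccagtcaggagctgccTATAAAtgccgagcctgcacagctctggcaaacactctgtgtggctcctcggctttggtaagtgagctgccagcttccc
S100P: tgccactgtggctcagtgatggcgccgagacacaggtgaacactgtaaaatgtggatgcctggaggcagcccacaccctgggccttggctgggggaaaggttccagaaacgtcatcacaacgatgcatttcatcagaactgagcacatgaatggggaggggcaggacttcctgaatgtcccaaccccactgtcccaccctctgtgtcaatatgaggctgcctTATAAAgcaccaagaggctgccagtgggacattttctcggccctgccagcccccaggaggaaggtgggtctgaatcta

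S100P, first described in placenta, binds ezrin and is a ligand of RAGE when released. It had 390, 449 and 352 CPM in the M1 libraries, against 17.6, 16.5 and 13.995 CPM in the CTRL libraries. Every M1 library was above every CTRL library by more than the spread within either group. The log2 fold change was 4.63 ± 0.15 (SE; edgeR adjusted p = 7.1e-18), or 24.8-fold. M2 libraries had 19.2, 15.5 and 14.3 CPM and M0 libraries 24.6, 13.01 and 17.5 CPM, and both sets overlapped CTRL.

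S100A14, found mainly in epithelia, had 4.75, 4.60 and 4.87 CPM in the M1 libraries, against 0.429, 0.441 and 0.231 CPM in the CTRL libraries. The groups did not overlap, and the log2 fold change was 3.69 ± 0.26 (SE; edgeR adjusted p = 1.52e-11), or 12.9-fold. S100A2, a p53-binding member expressed in basal epithelial cells, had 0.807, 0.767 and 0.409 CPM in the M1 libraries, against 0.0825, 0.0529 and 0.0926 CPM in the CTRL libraries. Its log2 fold change was 3.02 ± 0.52 SE (edgeR adjusted p = 2.43e-05). This rests on 60.5 counts over the M1 libraries and 7 over the CTRL libraries. S100A2 passed the filter only through libraries with M1 medium, so it had to differ and its p-value adds no support. Of the member windows searched, the second RefSeq window of S100A2 held an AP-1 match, TGACTCA, which begins 52 bases before the start.
S100A2: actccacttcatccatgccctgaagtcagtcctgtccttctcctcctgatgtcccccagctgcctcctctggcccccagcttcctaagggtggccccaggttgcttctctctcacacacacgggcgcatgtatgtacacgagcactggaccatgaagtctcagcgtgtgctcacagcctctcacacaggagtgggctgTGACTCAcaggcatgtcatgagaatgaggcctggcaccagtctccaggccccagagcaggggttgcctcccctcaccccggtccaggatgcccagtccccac
That window lies at chr1:153565795-153566094 on the minus strand of GRCh38.p14, with the match in capitals.

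S100A11, which binds annexin A1 and takes part in membrane repair, had the highest mean RNA per kilobase of the members in M1-DMSO, M2, M0 and CTRL, and in M1 it did not differ from S100P beyond their spread. It had 192, 199 and 180 CPM in the M1 libraries, against 124, 124 and 120 CPM in the CTRL libraries. The groups did not overlap, with a log2 fold change of 0.63 ± 0.05 (SE; edgeR adjusted p = 1.92e-10), or 1.55-fold. Its RefSeq window held a match to the C/EBP letters on the minus strand, 33 bases before the start. S100A10, a member that does not bind calcium and is the light chain of annexin A2, had 0.760, 0.903 and 0.768 CPM in the M1 libraries, against 0.297, 0.282 and 0.694 CPM in the CTRL libraries. CTRL replicate 3 stood close to the M1 libraries. The log2 fold change of S100A10 was 0.92 ± 0.36 (SE; edgeR adjusted p = 0.0314). It was no longer called without CTRL replicate 1 (adjusted p = 0.132), CTRL replicate 2 (0.125), M1 replicate 2 (0.0831) or M1 replicate 3 (0.0552).

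S100A4, which binds non-muscle myosin, averaged 0.583 ± 0.147 CPM in M1 and 0.489 ± 0.134 CPM in CTRL (SD, n = 3 each), and the groups overlapped (log2 fold change 0.22 ± 0.37 SE, edgeR adjusted p = 0.609). S100A16 averaged 0.283 ± 0.0706 CPM in M1 and 0.2497 ± 0.0607 CPM in CTRL, also with overlap (log2 fold change 0.28 ± 0.48 SE, edgeR adjusted p = 0.627). Both had at most 28.5 counts in any library, and their 95% intervals of -0.50 to 0.95 and -0.66 to 1.22 on the log2 scale left changes of that size undetectable at this depth. S100A4 overlaps S100A5, which had 0 counts in all libraries.

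Between M0 and CTRL, 0 members were called in either direction, where 6.67% of all genes tested were higher and 5.09% lower. Between M2 and CTRL, 0 members were called, where 5.28% were higher and 3.49% lower. These shares over all genes move down or up with single libraries. The members' count stayed at 0 without any 1 library, which for 9 tested members is near such shares, so nothing is read from it. The 1137 genes higher and 867 lower in M0 became 24 and 6 when CTRL replicate 1 was left out, 711 and 329 when it was CTRL replicate 3, 55 and 14 when it was M0 replicate 1, and 577 and 278 when it was M0 replicate 3. The 899 higher and 595 lower in M2 became 110 and 62 when CTRL replicate 1 was left out, 87 and 77 when it was M2 replicate 1, 284 and 123 when it was M2 replicate 2, and 1518 and 1144 when it was M2 replicate 3. Leaving out CTRL replicate 2 raised the counts over all genes to 1534 and 1196 in M0, and to 1236 and 835 in M2. Without M0 replicate 2 they rose to 1337 and 994 in M0. Without CTRL replicate 3 they were 629 and 422 in M2. In a fit of the compared groups alone they were 518 and 274 in M0, and 150 and 56 in M2. In both comparisons 0 members had an unadjusted p under 0.05 with edgeR, and DESeq2 called 0. For S100P the 95% interval of the log2 fold change was -0.27 to 0.34 for M2 against CTRL and -0.11 to 0.50 for M0 against CTRL. For S100A11 it was -0.03 to 0.18 for M2 and -0.05 to 0.15 for M0. These 2 members had counts enough for narrow intervals, whereas S100A9 had -1.07 to 2.49 for M2 and -1.30 to 2.41 for M0. Short genes tended to be higher in both media: among genes with transcripts under 1300 nt, a class that holds the 9 tested members, 12.3% were called higher in M2 and 13.9% in M0, calls that come from the same fits and libraries. The part of transcript length in the members' values was not tested, and with the length trend removed 0 members were still called in M2 or M0 against CTRL.

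**Figure D2:**
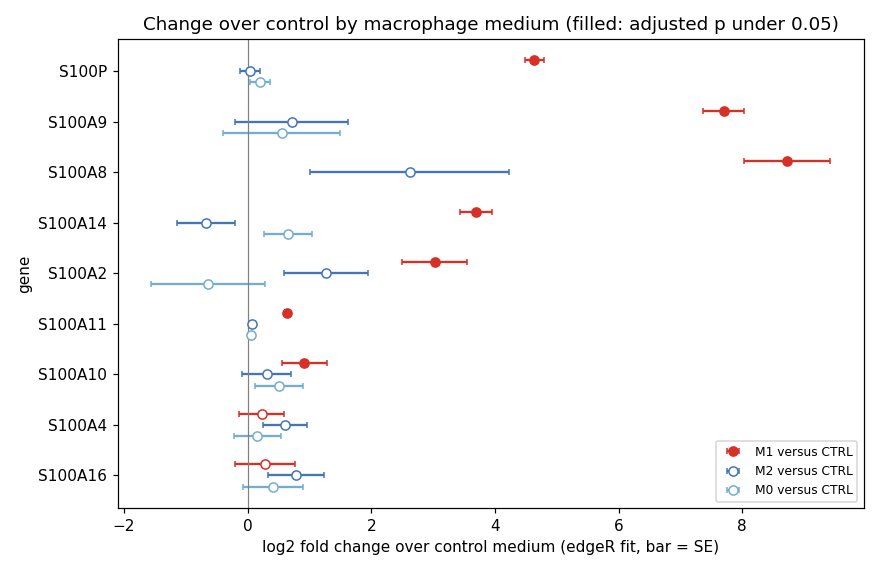
Log2 fold change over CTRL for M1, M2 and M0 medium, 1 row per member; points are edgeR estimates, bars SE, and filled points have an adjusted p under 0.05. Only M1 points are filled, with S100P at 4.63 and S100A9 at 7.70; S100A8 had 0 counts in M0 and CTRL, so it has no M0 point and its other estimates depend on the prior count of the fit.

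M1 medium was also set against the other macrophage media, which share the macrophage source and differ in polarisation. These comparisons use the same M1 libraries as the one with CTRL. Between M1 and M2, 6 members were called higher and 0 lower, where 34.3% of all genes tested were higher and 33.2% lower. Between M1 and M0, 6 members were higher and 0 lower, where 34.2% were higher and 33% lower. In both, 0 members were lower with an unadjusted p under 0.05, and DESeq2 called 0 lower. The 6 were S100P, S100A9, S100A8, S100A14, S100A2 and S100A11, so S100A10 was not called against either medium. S100P was 24.2-fold higher in M1 than in M2 and 21.6-fold higher in M1 than in M0. S100A14 was 20.6-fold higher than in M2 and 8.25-fold higher than in M0, with edgeR adjusted p of 4.34e-12 and 1.44e-10. S100A2 was 3.38-fold higher in M1 than in M2 (edgeR adjusted p = 0.00116) and 12.7-fold higher than in M0 (8.88e-06). S100A2, S100A8 and S100A9 had to differ here as well, since they passed the filter only through libraries with M1 medium.

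M2 and M0 media were compared directly as well. Here 0 members were called, where 0% of all genes tested were higher and 0.106% lower, and DESeq2 called 0. The 18 genes behind that share became 0 to 35 when 1 library was left out. At an unadjusted p under 0.05, edgeR had 2 members. S100A14 had 0.124, 0.192 and 0.416 CPM in M2 libraries, against 0.630, 0.294 and 0.787 CPM in M0 libraries (log2 fold change -1.32 ± 0.43 SE, edgeR adjusted p = 0.569). S100A2 had 0.187, 0.288 and 0.0793 CPM in M2 libraries, against 0.0954, 0.0367 and 0.0328 CPM in M0 libraries (log2 fold change 1.91 ± 0.76 SE, edgeR adjusted p = 0.767). The groups overlapped for both genes.

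The question of the IKK16 groups was how far the response to M1 medium needs IκB kinase activity. Between M1-IKK and M1-DMSO, 1 member was called higher, S100P, and 3 lower, S100A9, S100A8 and S100A11, where 14.4% of all genes tested were higher and 12.9% lower. S100A9 and S100A8 were called with a fall of at least 2-fold, as were 1.63% of all genes tested. S100A4 fell 2.04-fold and was not called.

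S100A9 had 5.69, 3.52 and 3.62 CPM in M1-IKK libraries, against 13.8, 14.3 and 17.4 CPM in M1-DMSO libraries. All M1-IKK libraries were below all M1-DMSO libraries, with a log2 fold change of -1.82 ± 0.18 (SE; edgeR adjusted p = 7.83e-08). S100A8 had 0.357, 0.348 and 0.552 CPM in M1-IKK libraries, against 1.22, 1.14 and 1.69 CPM in M1-DMSO libraries. Again the groups did not overlap, and the log2 fold change was -1.71 ± 0.33 (SE; edgeR adjusted p = 0.000775). Neither returned to the CTRL level. S100A9 was higher in M1-IKK than in CTRL by 5.54 on the log2 scale (edgeR adjusted p = 1.69e-10), or by 6.88 without CTRL replicate 2. S100A8 was at least 4.22-fold higher (edgeR adjusted p = 1.83e-05). Both genes passed the filter only through libraries with M1 medium, so these p-values against CTRL add no support. Of the 8 macrophage markers tested, 1 was higher with IKK16 and 4 were lower. Over all genes tested 14.4% were higher and 12.9% lower, and nothing is read from these counts. The marker that was higher was CSF1R, at 0.23 on the log2 scale (edgeR adjusted p = 0.00336). The marker ITGAM fell to 10.2 ± 0.745 CPM in M1-IKK, against 19.2 ± 1.203 CPM in M1-DMSO, and CD68 was 25.1 ± 1.47 CPM in M1-IKK and 30.7 ± 0.332 CPM in M1-DMSO (SD, n = 3 each; edgeR adjusted p = 4.44e-05 and 0.00797). Their part in the fall of the calprotectin genes was not tested.

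S100A11 had 153, 153 and 155 CPM in M1-IKK libraries, against 175, 176 and 189 CPM in M1-DMSO libraries. The groups did not overlap, and the difference was small, with a log2 fold change of -0.23 ± 0.05 (SE; edgeR adjusted p = 0.00172). S100A11 was still 1.25-fold higher in M1-IKK than in CTRL (edgeR adjusted p = 1.54e-05).

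S100P had 428, 475 and 508 CPM in M1-IKK libraries, against 346, 337 and 369 CPM in M1-DMSO libraries. All M1-IKK libraries were higher, with a log2 fold change of 0.42 ± 0.12 (SE; edgeR adjusted p = 0.0135). This call was lost with DESeq2 (adjusted p = 0.0929), without M1-DMSO replicate 2 (0.0567) and without M1-IKK replicate 3 (0.065). The 95% interval of the difference, 0.18 to 0.67 on the log2 scale, holds no fall.

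S100A14 had 6.19, 8.59 and 6.43 CPM in M1-IKK libraries, against 4.38, 5.61 and 5.63 CPM in M1-DMSO libraries. The groups did not overlap but the difference was not called (log2 fold change 0.43 ± 0.17 SE, edgeR adjusted p = 0.058). It was called without a filter on low counts (adjusted p = 0.0414) and in a fit of these groups alone (0.0259). S100A10 had 0.992, 1.08 and 1.85 CPM in M1-IKK libraries, against 0.862, 0.898 and 0.423 CPM in M1-DMSO libraries, and was not called (log2 fold change 0.83 ± 0.32 SE, edgeR adjusted p = 0.0581), though it was without M1-IKK replicate 1 (0.0484). The 95% interval of S100A2 ran from -0.81 to 0.50 on the log2 scale (edgeR adjusted p = 0.776). S100A4 had 0.198, 0.164 and 0.400 CPM in M1-IKK libraries, against 0.379, 0.554 and 0.615 CPM in M1-DMSO libraries, with an overlap and an interval of -1.92 to -0.14 (edgeR adjusted p = 0.0986). S100A16 had an interval of -0.79 to 1.02 (edgeR adjusted p = 0.885).

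**Figure D3:**
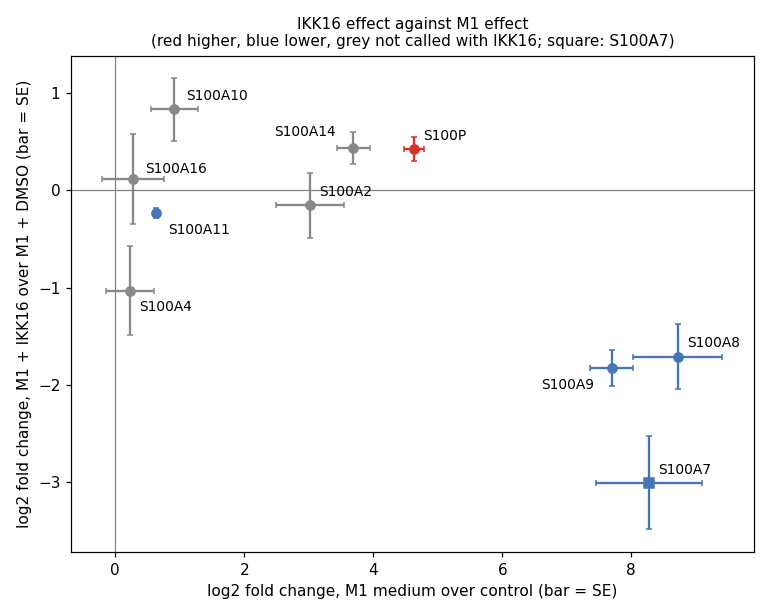
Log2 fold change with IKK16 (M1-IKK over M1-DMSO, vertical axis) against that with M1 medium (M1 over CTRL, horizontal axis) for the 9 tested members and S100A7; bars are SE, and the axes share no library. S100A9 and S100A8 lie at the lower right, at -1.82 and -1.71 on the vertical axis, and S100P lies above 0 at 0.42; the horizontal positions of S100A8 and S100A7, with 0 counts in CTRL, depend on the prior count of the fit.

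Against CTRL, cells given M1 medium with IKK16 had 7 members called higher and 0 lower, where 27.1% of all genes tested were higher and 25.4% lower. DESeq2 also called 0 lower. S100A4, not called (log2 fold change -0.97 ± 0.45 SE, edgeR adjusted p = 0.0763), was the 1 member lower with an unadjusted p under 0.05, and it was called lower without M1-IKK replicate 3 (adjusted p = 0.036). The 7 were S100P, S100A9, S100A8, S100A14, S100A2, S100A11 and S100A10. Of these, S100A9, S100A8 and S100A2 passed the filter only through libraries with M1 medium, so their calls add no support. S100P was 29.4-fold and S100A14 19.2-fold higher in M1-IKK than in CTRL (edgeR adjusted p = 6.89e-18 and 1.04e-12). S100A10 was 3.03-fold higher (edgeR adjusted p = 0.000457). M1-IKK differs from CTRL in M1 medium, IKK16 and DMSO together, and these cannot be told apart here. In M1-DMSO against M1, 0 members were called, where 2.22% of all genes tested were higher and 2.03% lower, and DESeq2 called 0. Those shares are 378 and 346 genes, which became 27 to 862 and 44 to 625 when any 1 of the 6 libraries was left out. S100A9 alone had an unadjusted p under 0.05 (log2 fold change -0.34, edgeR adjusted p = 0.211).

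The mix of S100 RNA, as CPM per kilobase of transcript, also changed. In CTRL S100A11 was at 207 and S100P at 12.5 on this scale, 93.5% and 5.66% of the sum of the 10 members. M1 cells had 321 for S100A11 and 310 for S100P, which were 47.5% and 45.9% of the sum. These 2 levels did not differ beyond their spread, at SDs of 16.4 and 38.1. In M1-IKK the order turned, with S100P at 368 ± 31.4 above S100A11 at 258 ± 2.28 (SD, n = 3 each). S100A9 came next in M1 at 33.3, followed by S100A14 at 4.48 and S100A8 at 3.72. S100A4, S100A10, S100A2 and S100A16 were below 1 in M1.

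Other S100 genes were read beside the members. Of 10, 3 passed the filter: S100A7, S100A1 and S100A13. S100A7 (psoriasin), an antimicrobial protein of inflamed epithelia, had 1.22, 1.53 and 1.31 CPM in the M1 libraries and 0 counts in every CTRL, M0 and M2 library. It was at least 13.6-fold higher in M1 than in CTRL (edgeR adjusted p = 1.08e-07). With IKK16 it had 0.278, 0.0409 and 0.0761 CPM in M1-IKK libraries, against 0.947, 0.883 and 1.48 CPM in M1-DMSO libraries (log2 fold change -3.00 ± 0.48 SE, edgeR adjusted p = 0.000165). S100A7 reached the filter limit only in M1-DMSO and M1 libraries, where it is high, so it had to differ in both comparisons. S100A1 and S100A13, which overlap each other in the genome, were not called in either comparison. S100A5, S100A12 and S100B had 0 counts throughout. In order along chromosome 1, S100A12, at 0 counts, lies between S100A9 and S100A8, and S100A7A, which did not pass the filter, lies between S100A8 and S100A7. S100A2 and S100A14, which were raised in M1 and not called with IKK16, stand beyond S100A4.

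**Figure D4:**
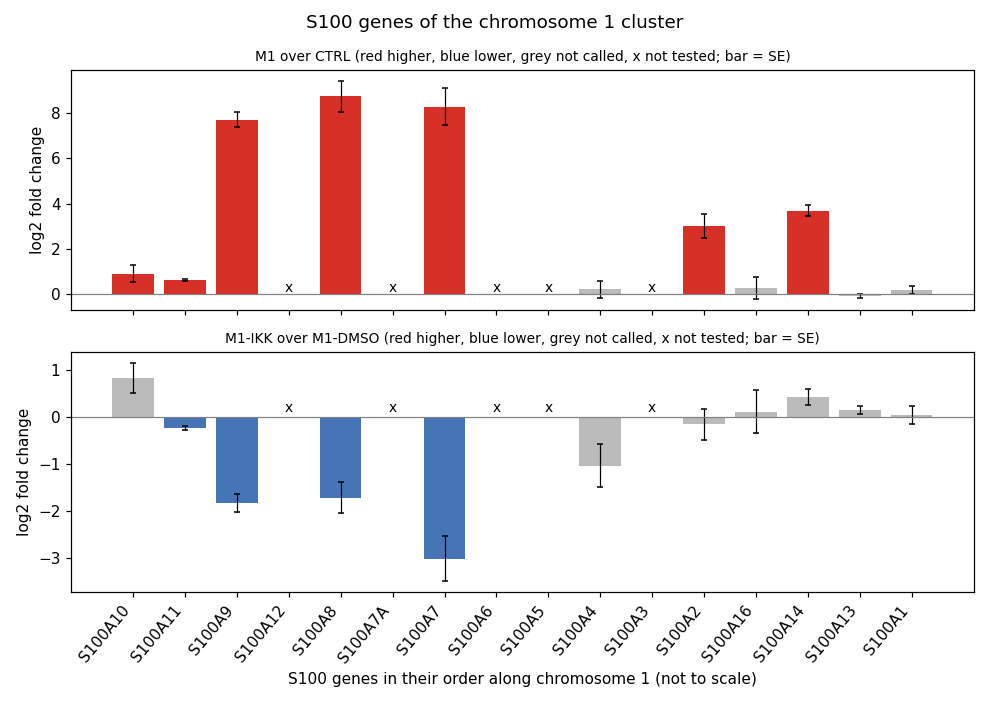
Log2 fold change (bars, with SE) of the chromosome 1 S100 genes in their chromosome order, not to scale, for M1 over CTRL (top) and M1-IKK over M1-DMSO (bottom); red is called higher, blue called lower, grey not called and x not tested. S100A9 and S100A8 were raised in M1 and lowered with IKK16, whereas S100A14 was raised in M1 (3.69) and not called with IKK16 (0.43).

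Annexins, the membrane-binding partners of several S100 proteins, were split in M1 against CTRL. Of 8 tested, 4 were higher and 2 lower, with a median log2 fold change of 0.30 beside 0.00 for all genes tested. Over all genes tested 32.9% were higher and 31.9% lower, as given above, and nothing is read from the counts of this list or the lists that follow. ANXA2, the partner of S100A10, averaged 0.672 CPM in M1 and 0.153 CPM in CTRL (log2 fold change 2.11 ± 0.42 SE, edgeR adjusted p = 0.000132). Like some members, ANXA2 reached the filter limit only in libraries with M1 medium. ANXA1, the partner of S100A11, averaged 2.24 CPM in M1 and 0.602 CPM in CTRL (log2 fold change 1.89 ± 0.33 SE, edgeR adjusted p = 2.94e-05). ANXA4 was higher by 0.66 on the log2 scale, ANXA6 was lower at -0.82 and ANXA11, a partner of S100A6, was lower at -0.24. With IKK16, 1 of the 8 was called, ANXA11, at -0.16 (edgeR adjusted p = 0.0178).

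On the receiving side, 5 of 8 receptors and adaptors were tested, and 3 were higher and 0 lower in M1 than in CTRL (median 0.21), beside 32.9% and 31.9% of all genes tested. AGER, which encodes RAGE, averaged 1.85 CPM in M1 and 1.75 CPM in CTRL and was not called (log2 fold change 0.09 ± 0.21 SE, edgeR adjusted p = 0.725). TLR4 had 1 count over all 18 libraries. LY96 (MD-2), the co-receptor of TLR4, averaged 4.31 ± 0.940 CPM in M1 and 0.0932 ± 0.0337 CPM in CTRL (SD, n = 3 each; log2 fold change 5.55, edgeR adjusted p = 1.03e-11). It too reached the filter limit only in libraries with M1 medium, so it had to differ. The TLR adaptor MYD88 was higher by 0.64 on the log2 scale, and the RAGE-binding formin DIAPH1 by 0.21. With IKK16, 2 of the 5 were lower, LY96 at -1.20 and MYD88 at -0.19 (edgeR adjusted p = 0.00235 and 0.00748).

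Of 11 tested intracellular partners, 6 were higher and 3 lower in M1 than in CTRL (median 0.28), beside 32.9% and 31.9% of all genes tested. The largest rises were PLA2G4A, the cytosolic phospholipase A2, at 3.29 on the log2 scale, AHNAK, a scaffold bound by the S100A10 and annexin A2 complex, at 1.19, and IQGAP1, a cytoskeletal scaffold, at 1.04. Those lower were the calcium channels TRPV5 (-1.11) and TRPV6 (-0.43), and CACYBP (-0.54), the calcyclin-binding protein. EZR (ezrin), the partner of S100P, was higher at 0.28 (edgeR adjusted p = 8.55e-05). With IKK16, 1 was higher and 3 lower, among them MYH9, the myosin heavy chain bound by S100A4, at -0.34 (edgeR adjusted p = 0.00663). Among EF-hand calcium sensors outside the S100 family, CALM3 was lower in M1 than in CTRL at -0.40 on the log2 scale (edgeR adjusted p = 7.93e-09). In M1-IKK against M1-DMSO, CALM2 was higher at 0.48 and CALM3 at 0.22 (edgeR adjusted p = 1.87e-05 and 0.000205). Of the epidermal genes whose proteins carry an S100 domain, 2 of 7 were tested, FLG (filaggrin) at -4.25 and HRNR (hornerin) at -5.63 on the log2 scale in M1 against CTRL. Neither reached the filter limit in any library with M1 medium, so both were tested only through the other groups and had to differ.

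Finally, genes with the most similar pattern over the 6 group means were sought for each member among 14780 tested genes of at least 1 CPM on average. Likeness was the root mean square difference of the centred log2(CPM + 0.25) means. For S100A9 the nearest were IGFBP3 (0.136), GBP4 (0.184) and SYTL2 (0.189). IGFBP3, a secreted binding protein of insulin-like growth factors, averaged 70.3 CPM in M1-IKK, 233 in M1-DMSO, 292 in M1 and 5.37 in CTRL. For S100P they were TNFRSF21 (0.123), PTGS2 (0.136) and WFDC21P (0.143). PTGS2, the inducible cyclooxygenase COX-2, averaged 8.41 CPM in M1-IKK, 5.74 in M1-DMSO, 6.39 in M1 and 0.0919 in CTRL. ADGRV1 (0.1003), LINC01697 (0.105) and MIR6843 (0.108) were nearest to S100A8. KRT2 (0.193), RDH16 (0.209) and MCTP1 (0.224) were nearest to S100A14. ADORA2A-AS1 (0.0638), ADORA2A (0.0704) and VWA2 (0.121) were nearest to S100A2. TOR1AIP1 (0.0226), GRAMD2B (0.0266) and NLGN4Y (0.0268) were nearest to S100A11. FAM177B (0.104), ADGRG6 (0.110) and CRYAB (0.114) were nearest to S100A10. LINC00940 (0.0570), ACTA2-AS1 (0.0942) and MBNL1-AS1 (0.103) were nearest to S100A4. LYPLA2P2 (0.0411), ARHGAP5-AS1 (0.0542) and CCDC180 (0.0548) were nearest to S100A16. The added 0.25 CPM shrinks the changes of members at low counts, so their likeness depends on it. S100A8 averaged 1.84 CPM in M1 and had 0 counts in CTRL, whereas ADGRV1 averaged 62.3 CPM in M1 and 8.62 CPM in CTRL. These values describe 6 means and carry no test.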

How the data were processed

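One table for 18 libraries was deposited by the authors, with expected counts for RefSeq transcripts in steps of 0.5 and no normalisation. Per the submitters' processing notes, the build is hg38 and the tools were HOMER 4.10, BWA 0.7.17 and Trimmomatic. What each tool did, whether strand was used and how multiply matching reads were counted is not given in the sources used here. Of 70507 transcripts, 69830 were named with an NCBI RefSeq table (GRCh38.p14), 327 with GENCODE 29, and 350 without a name stayed out. Transcripts of a gene share reads, so each gene was represented by its transcript with the most counts, for 28087 genes in all. Counts were rounded to whole numbers for the tests. Lengths for values per kilobase came from GENCODE 29 (89.2% of genes), in place of the count table that had been planned as their source and gives none.

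Tests were run with edgeR 4.0.16 in R 4.3.3 on all 18 libraries, with TMM scaling, filterByExpr (17034 genes tested, 11053 left out), 1 mean per group and the quasi-likelihood test. The common biological coefficient of variation was 0.0627. A two-sided Benjamini-Hochberg adjusted p under 0.05 was the threshold in each of 9 comparisons, and the SE is the log2 fold change over the square root of F. The fit was also run on simulated counts, with the common spread for every gene and changes only in genes above 1 CPM. That run does not cover members at lower levels, and nothing is drawn from it. Precision follows depth: 6 of the members stayed below 100 counts in every library. Replicate pairs differed by more than sampling noise (chi-square per gene 2.71 to 21.6 over 18 pairs). Because PCR copies were not marked by molecular identifiers, the floors describe counting error alone.

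Alternatives were DESeq2 1.42.0, its size factors in edgeR, no filter, a filter of 1 CPM in 3 libraries, the compared groups alone, the replicate block, the longest transcript, a removed length trend and each library left out. Named besides the members are up to 3 called genes per direction of each partner list, AGER, TLR4, ANXA1, ANXA2 and ANXA11 in any case, and the 3 genes nearest each member in pattern. CD68, CSF1R, EZR, MYH9, CALM2, KRT8, EPCAM, FOLH1, STEAP2, LYZ, LAPTM5, SPI1 and ITGB2 were added after their values were seen. The members and lists were chosen with earlier results of these data known. Promoters are from RefSeq, with all 10 members matched (14 windows). Some results of the partner lists are not reported here.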

Additional observations from a re-analysis of the deposited data

How the results depend on the processing

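Of 81 member results, 30 were called; 28 of these stayed called under every alternative that gave a value, and 0 turned sign. The exceptions were S100A10 in M1 against CTRL and S100P in M1-IKK against M1-DMSO, both given above. Members called higher in M1-IKK against M1-DMSO numbered 1, and became 2 without a filter, 2 with these groups alone, 0 with DESeq2, and 0 to 2 when 1 library was left out. Members lower in M1-IKK against CTRL numbered 0, and 0 to 1 when 1 library was left out. Without M1-IKK replicate 3 the count was 1, S100A4. The causes were not tested. Of 48 results called under no alternative, 18 turned sign under at least 1, with log2 fold changes between -0.46 and 1.91. The filter of 1 CPM in 3 libraries left out low members, which then have no value.

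Replicates with the same number did not pair the samples, with correlations of deviations from -0.12 to 0.12 and 0 of 9 comparisons in which every library was closest to its own number. With the replicate block, 7 members were again called higher in M1 against CTRL. Leaving out 1 library leaves 2 in its group, which share the spread of all groups. Depth limits S100A2, S100A4, S100A8, S100A10 and S100A16 most, and S100A6 was below the limit of 3 counts in every library.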
